A study of Mus musculus with 24 samples.

Results

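Brown adipose tissue of wild-type mouse neonates was compared with C2C12 cells that express NFIA, taken at day 7 without forskolin, to see which adipocyte genes the cells reach and which they lack. The 6 libraries compared, 3 of tissue and 3 of cells, were chosen by their labels from the 24 of the series. C2C12 is a mouse myoblast line that normally fuses into muscle fibres, and NFIA is a DNA-binding protein of the nuclear factor I (NFI) group. The tissue carries the genotype label wild-type and the cells carry no genotype label. The sources used here do not say how NFIA was brought into the cells, which medium they were kept in, or whether libraries came from separate animals or cultures. The p-values therefore measure only the spread, which may be technical, between these libraries. Control C2C12 cells at day 7, and NFIA-expressing cells at day 7 after 4 h with 10 µM forskolin, an activator of adenylyl cyclase that raises cAMP, were used for levels set beside the 2 groups and, with the rest of the series, in 1 alternative fit.

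Brown adipocytes burn fatty acids in dense mitochondria and release the energy as heat. UCP1 lets protons cross the inner mitochondrial membrane without ATP synthesis, fatty acids reach the matrix through CPT1, and cAMP from adrenergic signals drives lipolysis and thermogenic transcription. PPARgamma and C/EBPalpha run the programme that all fat cells share, while EBF2, PRDM16, PPARalpha and PGC-1alpha are known for setting or amplifying the brown one. White fat cells store triglyceride and secrete hormones such as leptin and resistin. Genes are called lacked below where they were called higher in tissue and the cell mean was under 10% of the tissue mean, and short where they were called higher in tissue and the cells stood at 10% or more.

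The promoters below were chosen as examples of the different outcomes, and they show what stands just upstream of such genes. Each is the stretch of 250 bases before the RefSeq start on GRCm38.p6, 5′ to 3′ on the gene's strand. Capitals mark TTGGCA, a half-site of the NFI family, and AGGTCA, a half-site of nuclear receptors such as PPARgamma, on either strand (TGCCAA and TGACCT on the other). Ucp1, the uncoupling protein, and Slc27a2, a fatty acid activating enzyme, are lacked, as is Cox8b, a cytochrome oxidase subunit. Plin1, the lipid droplet coat protein, was not called, and Lcn2, a secreted lipid carrier, was higher in the cells.

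Ucp1 (chr8:83290098-83290347, plus strand): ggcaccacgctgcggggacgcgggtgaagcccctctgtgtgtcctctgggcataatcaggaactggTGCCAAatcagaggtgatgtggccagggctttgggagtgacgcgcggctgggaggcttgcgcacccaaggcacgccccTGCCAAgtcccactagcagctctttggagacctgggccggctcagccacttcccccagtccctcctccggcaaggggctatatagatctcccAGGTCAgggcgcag
Slc27a2 (chr2:126552774-126553023, plus strand): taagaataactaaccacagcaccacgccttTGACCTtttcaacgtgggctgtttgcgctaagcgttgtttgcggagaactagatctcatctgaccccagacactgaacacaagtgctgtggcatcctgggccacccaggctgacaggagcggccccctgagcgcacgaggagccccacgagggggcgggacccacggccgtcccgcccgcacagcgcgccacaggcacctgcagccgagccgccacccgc
Cox8b (chr7:140900447-140900696, minus strand): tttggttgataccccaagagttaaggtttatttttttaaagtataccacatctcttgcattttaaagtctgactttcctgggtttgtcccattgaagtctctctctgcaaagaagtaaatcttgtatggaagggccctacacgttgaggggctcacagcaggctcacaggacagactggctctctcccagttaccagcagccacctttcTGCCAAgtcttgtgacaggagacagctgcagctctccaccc
Plin1 (chr7:79732777-79733026, minus strand): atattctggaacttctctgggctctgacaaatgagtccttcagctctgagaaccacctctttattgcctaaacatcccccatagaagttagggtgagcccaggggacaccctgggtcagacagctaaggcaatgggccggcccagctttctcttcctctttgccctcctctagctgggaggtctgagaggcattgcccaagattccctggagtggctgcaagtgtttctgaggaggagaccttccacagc
Lcn2 (chr2:32387740-32387989, minus strand): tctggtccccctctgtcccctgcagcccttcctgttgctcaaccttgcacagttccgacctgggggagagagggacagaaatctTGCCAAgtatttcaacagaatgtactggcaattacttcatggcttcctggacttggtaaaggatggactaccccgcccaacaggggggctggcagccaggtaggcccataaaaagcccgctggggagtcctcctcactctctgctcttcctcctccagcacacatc

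The Ucp1 promoter held 2 NFI half-sites, beginning 184 and 106 bases before the start, and 1 nuclear receptor half-site 14 bases before it. Slc27a2 had 1 nuclear receptor half-site and Cox8b 1 NFI half-site. Plin1 had neither and Lcn2 had 1 NFI half-site, so genes that the cells lack and genes that they exceed both hold these letters. Of all 32851 promoters of this length, 12.3% held the NFI half-site and 14% the nuclear receptor half-site. Among the 46 promoters of lacked adipocyte genes the shares were 17.4% and 26.1%. Among the 124 promoters of short ones they were 16.1% and 13.7%. Among the 54 promoters of adipocyte genes higher in cells they were 9.26% and 22.2%. Among the 26 promoters of adipocyte genes without a call they were 0 and 19.2%.

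Expression is given as FPKM, fragments scaled to transcript length and library size, and without read totals the depth of each library is unknown. Tissue replicate 2 stood apart from the other tissue libraries: 83 tested genes lay over 2-fold above both and 101 over 2-fold below both, against 25 and 8 for replicate 1 and 28 and 62 for replicate 3. In the cells these counts were 1 and 44 for replicate 1, 4 and 0 for replicate 2, and 7 and 4 for replicate 3. Column headers of the tables carry the year 2015 for the 3 tissue libraries and cell replicate 1, and 2016 for the other cell libraries. The short RNA mmu-mir-703 was at 166639 to 393312 FPKM in the cell libraries and 0 to 14728 FPKM in tissue. The rescaling to a fixed protein-coding sum, given below, leaves it out. Of the 13 mitochondrially encoded mRNAs, 12 were listed at 0 in every tissue library, so no fold is given for them. Fabp4 was listed at 0 in tissue replicate 3, and Scd1 at 0 in cell replicates 1 and 2, beside high values in other libraries of the group.

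NFIA itself checks the labels. Nfia was at 24.3, 32.8 and 32.6 FPKM in the tissue libraries and at 3585, 3256 and 3189 FPKM in the cells, against 1.33 ± 0.785 FPKM (SD, n = 3) in control cells. Every cell library lay far above every tissue library (112-fold by the means, adjusted p = 1.9e-08 by limma with Benjamini-Hochberg adjustment). The files do not say whether the counted reads come from the added or the endogenous gene. Of the other family members, Nfic (-0.99) and Nfix (-0.90) were also called higher in cells and Nfib (1.21) higher in tissue, as log2 differences of tissue minus cells. Apart from a listed zero of Fabp4 in tissue replicate 3, the labels of both groups matched their defining markers. Adipoq, Plin1, Pparg and Cebpa were detected in all 6 libraries, and Fabp4 in all but that tissue library. The brown fat markers Ucp1, Cidea and Cox8b were abundant in each tissue library. The other brown fat markers, Ppargc1a, Elovl3, Zic1 and Ebf2, were detected in each tissue library at lower levels, with the values given below.

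Of 11969 protein-coding genes tested, limma called 3626 higher in tissue (30.3%) and 4803 higher in cells (40.1%) at an adjusted p under 0.05, on log2(FPKM + 1). The adipocyte lists hold 258 genes, of which 250 passed the filter on low values. Of these, 171 (68.4%) were called higher in tissue and 53 (21.2%) higher in cells. Lacked genes numbered 49 (19.6%), against 6.92% of all genes tested, and 18 of them averaged below 1 FPKM in the cells. The remaining 26 (10.4%) had no call, against 29.6% of all genes tested. For 16 of those 26 the 95% interval of the difference lay within 2-fold either way. The same held for 3320 of the 3540 uncalled genes among all genes tested. The filter let 17 members through on tissue values alone and 4 on cell values alone, and such genes had to differ. The 250 include 73 respiratory chain and ATP synthase genes, 18 of the citric acid cycle and 24 of fatty acid oxidation. Of these, 69, 18 and 20 were called higher in tissue. In control cells their median members stood at 24%, 12.2% and 4.89% of tissue, so the totals are not of fat-specific genes alone. In bulk RNA such as this, fewer cells of a type and less RNA per cell cannot be told apart. With the libraries of the earlier header year only, which leaves 1 cell library, 159 members were called higher in tissue, 42 higher in cells and 54 were lacked. Without tissue replicate 2 the counts were 173, 50 and 52.

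Scaling moved the centre of the comparison. The median log2 difference over all genes was -0.15 as deposited and 0.01 after median-of-ratios rescaling, so list medians are given below relative to the median of all genes. On that footing all adipocyte list members together, mitochondrial genes included, stood 1.74 log2 units toward tissue. Quantile normalization and a fixed protein-coding sum gave 1.42 to 1.75. General adipocyte genes alone stood 1.56 toward tissue as deposited. No list median below changed sign under any of these scalings.

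**Figure D1:**
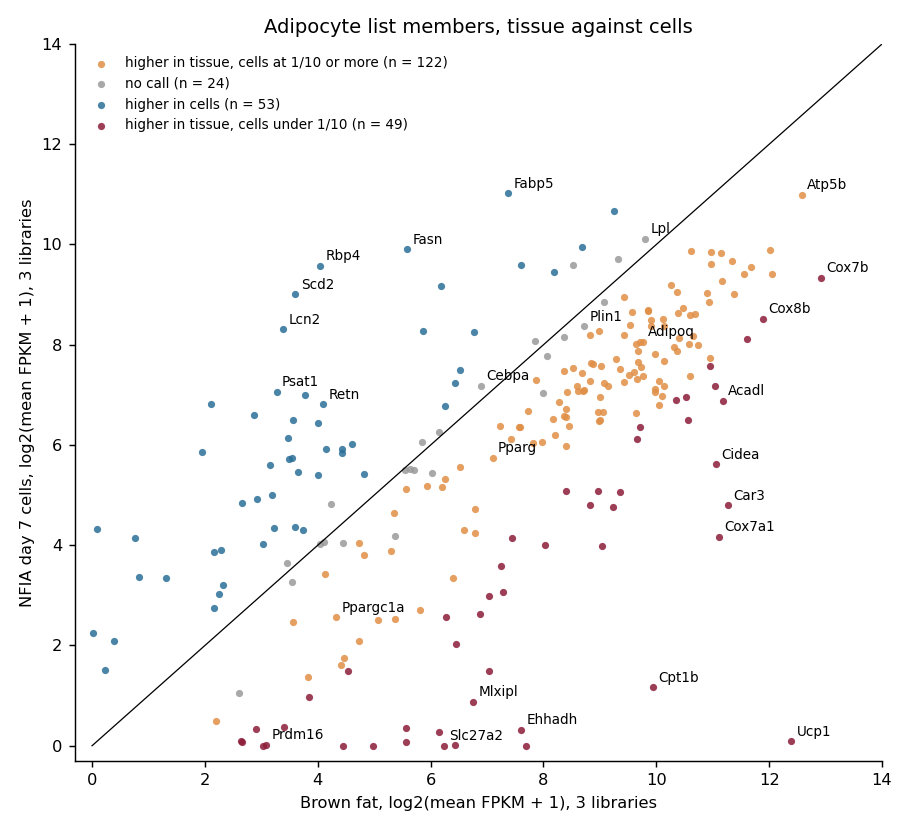
Mean expression of adipocyte list members in brown fat (x axis) and in NFIA day 7 cells (y axis), both as log2(mean FPKM + 1) over 3 libraries, coloured by class, with the line of equality. Fabp4 and Scd1 are left out because of their listed zeros. Ucp1, Cpt1b and Ehhadh lie at the lower right, Plin1, Cebpa and Lpl on or near the line, and Rbp4, Fasn, Scd2 and Lcn2 far above it.

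The lists separated by function. By their medians, thermogenic genes and fatty acid oxidation stood furthest toward tissue, followed by uncoupling proteins, cytochrome oxidase isoforms and the citric acid cycle. Genes of fatty acid uptake and triglyceride synthesis lay near the line, and lipogenesis, secreted proteins, the creatine cycle and white adipose selective genes lay toward the cells. Some lists share members, so their counts are not independent, and Pparg and Cebpa for example are in 2 lists.

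**Figure D2:**
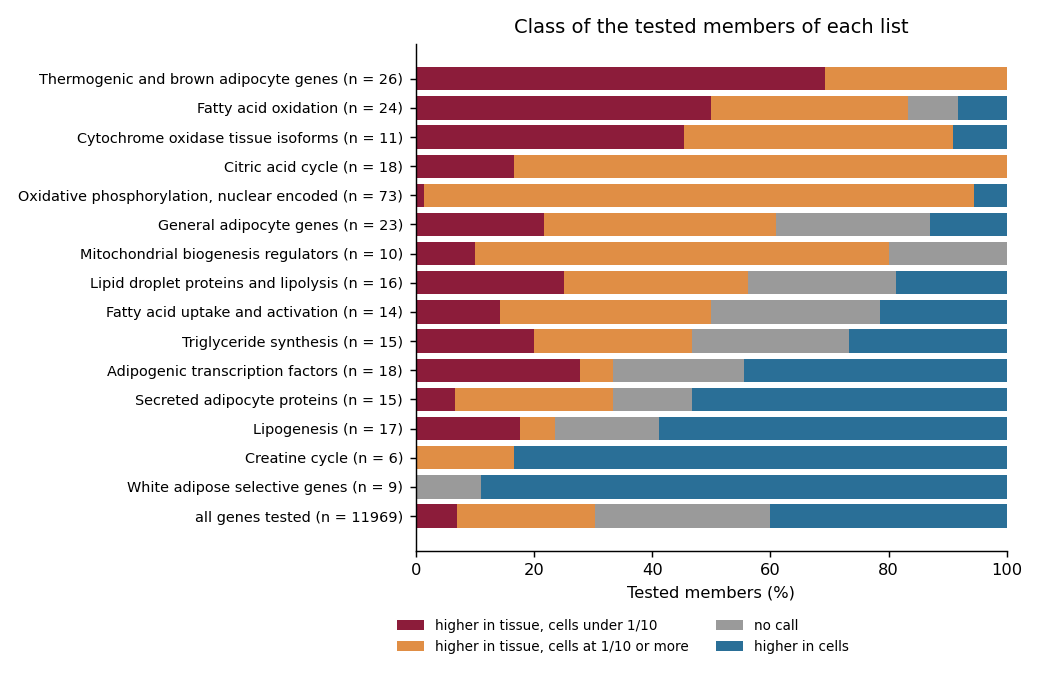
Share of tested members of each adipocyte list (rows, number tested in parentheses) that were lacked, short, without a call or higher in cells, with all genes tested in the bottom row. Uncoupling proteins, with 3 members tested, are not drawn. The bar of thermogenic genes holds no member without a call and none higher in cells.

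All 26 tested thermogenic and brown adipocyte genes, of 28 on the list, were called higher in tissue, and 18 of them (69.2%) were lacked. Over all genes tested these shares were 30.3% and 6.92%, and the list was chosen with earlier results of these data known. Differences on the log2(FPKM + 1) scale understate the change of genes that are low in 1 group. The list median stood 3.67 log2 units above that of all genes, and 10 members reached 1 FPKM in no cell library. Those 10 passed the filter on tissue values alone, so they could only come out higher in tissue. Ucp1 (chr8:85814247-85822355 on mm9), the proton channel of brown fat, was at 7239.6, 4753 and 4073 FPKM in the tissue libraries. In the cells it was at 0.01, 0.05 and 0.13 FPKM. The difference was 12.26 ± 0.20 log2 units (SE), the largest toward tissue of all genes tested (adjusted p = 2.9e-09, limma). After forskolin the cells reached 2.75, 3.95 and 3.06 FPKM, and control cells were at 0 in all libraries.

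Some lacked genes were nonetheless expressed in the cells at clearly measurable levels, among them Cidea and the oxidase subunit genes Cox8b and Cox7a1. Cidea, a lipid droplet protein of brown fat, was at 2138, 2251 and 1973 FPKM in tissue and 45, 52.1 and 46.8 FPKM in the cells, 2.26% of the tissue level by the means, while control cells held 0.14 FPKM. Cox8b was at 4128, 3502 and 3697 FPKM in tissue and 222, 449 and 425 FPKM in the cells, or 9.68%, which is just under the 10% limit. Cell replicate 1, of the earlier header year, was the lowest of the cell libraries for Cox8b. Without it the cells stood at 11.6%, which would make Cox8b short, and the groups did not overlap. Cox7a1 stood lower still, at 2398, 2384 and 1822 FPKM against 13.4, 19.6 and 18.2 FPKM, and below the 70.7 FPKM of control cells. The differences were 5.44 ± 0.13, 3.43 ± 0.27 and 6.94 ± 0.18 log2 units (SE), all called.

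Several brown fat genes were at 0 or close to it in every cell library. Cpt1b, the muscle and brown fat form of the enzyme that admits fatty acids to mitochondria, was at 1077, 909.9 and 965 FPKM in tissue and 1.06, 1.51 and 1.16 FPKM in the cells (791-fold by the means). Slc27a2 was at 70.1, 101 and 52.1 FPKM in tissue and 0 in all cell libraries. Ebf2, a transcription factor that marks brown adipocyte precursors, was at 23.1, 14.1 and 25.6 FPKM in tissue and likewise at 0 in all cell libraries. Prdm16, the coregulator that favours brown over muscle fate, was at 8.54, 4.49 and 9.44 FPKM in tissue and 0.01, 0.03 and 0 FPKM in the cells. Otop1, a proton channel gene enriched in brown fat, was at 114, 46.3 and 95.3 FPKM in tissue and at most 0.03 FPKM in the cells. These genes had no overlap between the groups, and Ebf2 and Slc27a2 were at 0 in the forskolin libraries too. A listed 0 in these tables can be a failed estimate, since Fabp4, Scd1 and mitochondrial mRNAs are also listed at 0, so a 0 here and below says only how the gene is listed.

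Other thermogenic genes were short rather than lacked. Ppargc1a, the coactivator of mitochondrial biogenesis, was at 18.4, 27.8 and 10.8 FPKM in tissue and 5.27, 5.07 and 4.34 FPKM in the cells (1.67 ± 0.29 log2 units, adjusted p = 0.00088, limma). With forskolin it reached 70.3, 65.1 and 66.8 FPKM, above every tissue library. The call was lost with the earlier-year libraries alone (1.58, adjusted p = 0.054, limma). Dio2, which activates thyroid hormone, varied widely in tissue, at 21.7, 36.7 and 4.6 FPKM, against 2.78, 2.34 and 2.04 FPKM in the cells and 14, 12.4 and 12.9 FPKM in control cells. Its call was also lost in the earlier-year libraries (2.16, adjusted p = 0.15, limma). Elovl3, a brown fat fatty acid elongase, was at 39.2, 18.2 and 39.9 FPKM in tissue and 4.63, 5.2 and 4.14 FPKM in the cells. Zic1, a transcription factor used as a marker of classical brown fat, came closest, at 11.9, 10.5 and 9.92 FPKM against 3.53, 4.65 and 5.35 FPKM, but control cells held 9.33, 7.4 and 5.2 FPKM. Adrb3, the beta3 adrenergic receptor, did not pass the filter, at 3.07, 0.85 and 2.09 FPKM in tissue and 0.33, 0.42 and 0.31 FPKM in the cells.

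**Figure D3:**
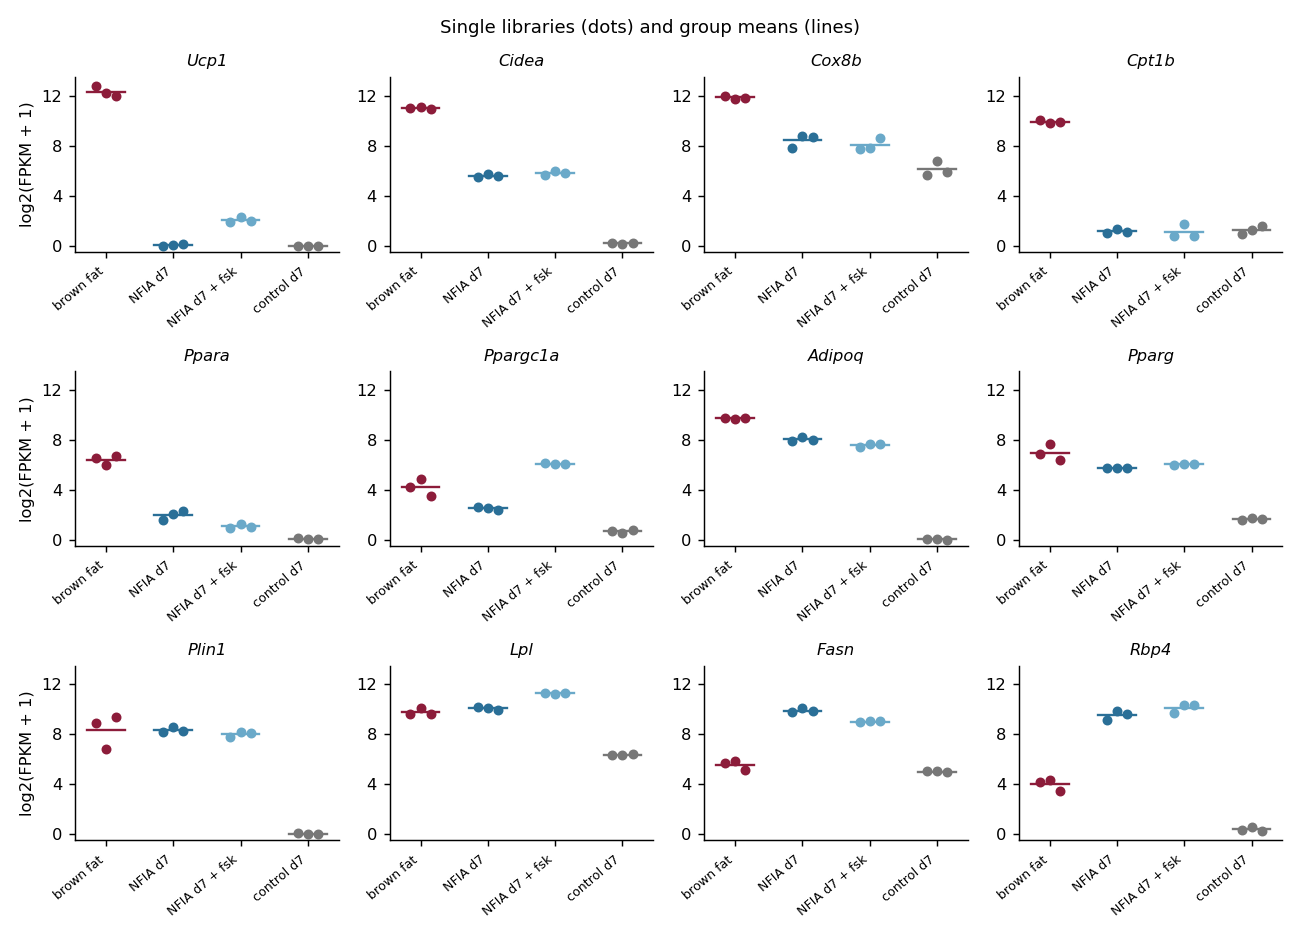
Expression of 12 genes in single libraries (dots, replicate 1 to 3 from left to right) as log2(FPKM + 1), with group means as lines, in brown fat, NFIA day 7 cells, the same cells with forskolin, and control day 7 cells. Ucp1 and Cpt1b sit at the bottom of the scale in NFIA and control cells, Plin1 and Lpl overlap between brown fat and NFIA cells, and Fasn and Rbp4 are higher in NFIA cells than in brown fat and control cells.

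The transcription factors of fat cells went in both directions. Of 18 tested, 6 (33.3%) were called higher in tissue, 8 (44.4%) higher in cells, and 4 had no call. The first 2 shares were near the 30.3% and 40.1% of all genes. Lacked members numbered 5 (27.8%), against 6.92% of all genes, and all 5 averaged below 1 FPKM in the cells. The filter let 3 members through on tissue values alone and 1 on cell values alone, so their direction was fixed. Pparg, the master regulator of adipogenesis, was at 116, 208 and 84.4 FPKM in tissue and 52, 54 and 52 FPKM in the cells, with every tissue library above every cell library (1.25 ± 0.28 log2 units, adjusted p = 0.0041, limma). That call was lost with the earlier-year libraries alone (1.27, adjusted p = 0.092, limma). Cebpa, its partner, overlapped between the groups, at 142, 84.1 and 127 FPKM in tissue and 111, 179 and 142 FPKM in the cells, with a 95% interval of the difference of -0.84 to 0.25. Control cells held 2.22 FPKM of Pparg and 5.77 FPKM of Cebpa. Nr1h3, the oxysterol receptor LXRalpha, also overlapped, at 65.6, 42.3 and 46 FPKM and 45, 48.5 and 39.5 FPKM (interval -0.22 to 0.59).

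The receptors that pair with or stand beside PPARgamma were split. Rxra, the ubiquitous retinoid X receptor, was higher in cells, at 55.6, 60.6 and 53.4 FPKM against 17.9, 22.2 and 21.2 FPKM in tissue. Rxrg, a more restricted member of the same family, was lacked, at 0.32, 0.4 and 0.13 FPKM against 54.8, 32.1 and 51.4 FPKM. Ppara, which drives fatty acid oxidation genes, was at 1.97, 3.13 and 4.14 FPKM in the cells and 91.8, 64.3 and 103 FPKM in tissue, a 28-fold difference by the means. The lipogenic regulators were split too. Srebf1, which responds to insulin and sterols, was higher in cells (285, 318 and 305 FPKM against 125, 105 and 92.9 FPKM), and Mlxipl, the glucose-sensing factor ChREBP, was lacked (1.07, 0.83 and 0.63 FPKM against 116, 135 and 69.3 FPKM). Klf15, a glucocorticoid-responsive factor, was called higher in cells, at 34.4, 50.4 and 43.8 FPKM against 3.15, 28.4 and 2.87 FPKM in tissue. Tissue replicate 2 stood apart there, and the call was lost without tissue replicate 1 (-2.02 against -2.48, adjusted p = 0.053, limma).

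Regulators of mitochondrial number followed the thermogenic genes at smaller size. Of 10, 8 were called higher in tissue (80%, against 30.3% of all genes) and none higher in cells. On tissue values alone the filter let 1 of them through, so its direction was fixed. The list median stood 1.33 log2 units above all genes. Ppargc1b, a coactivator related to Ppargc1a, was at 27.5, 29.3 and 19.9 FPKM in tissue and 3.42, 3.08 and 3.29 FPKM in the cells. Esrra, the estrogen-related receptor alpha, was at 109 ± 21.2 FPKM in tissue and 25.5 ± 5.18 FPKM in the cells (SD, n = 3 each). Neither overlapped between the groups, and Nrf1 and Pprc1 were the 2 members without a call.

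Fatty acid oxidation was the most depleted metabolic pathway by its median, 3.43 log2 units toward tissue relative to all genes. Of 24 members tested, 20 (83.3%) were called higher in tissue, 12 of them lacked (50%), against 30.3% and 6.92% of all genes. On tissue values alone the filter let 1 of them through, so its direction was fixed. The median member stood at 10.1% of its tissue level. In control cells that median was 4.89%. Acadl, the long-chain acyl-CoA dehydrogenase, was at 2344, 2408 and 2179.7 FPKM in tissue and 114, 117 and 119.7 FPKM in the cells (19.8-fold by the means), and control cells held 93.4 FPKM. Slc25a20, the carnitine carrier of the inner membrane, was at 685, 452 and 674 FPKM and 26.3, 26.7 and 25.3 FPKM. Ehhadh, a peroxisomal bifunctional enzyme, was at 214, 179.8 and 188 FPKM and at most 0.34 FPKM in the cells. All library values of these 3 genes were separate between the groups by over 10-fold. Acadm, for medium chains, was short, at 1554, 1316 and 1406 FPKM and 432, 427 and 414 FPKM.

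A few oxidation genes were not called higher in tissue. Acaa1a, a peroxisomal thiolase, had an interval of -0.30 to 0.58, and its near-identical neighbour Acaa1b was called higher in cells, so the split of reads between them is uncertain. Cpt1a, the liver form of the enzyme whose brown fat form is lacked, was at 16.7, 7.31 and 13 FPKM in tissue and 18.6, 19 and 18.6 FPKM in the cells (-0.63 ± 0.25 log2 units, adjusted p = 0.049, limma). That call was lost in 12 of 20 alternatives, and without tissue replicate 2 the difference was -0.33 (adjusted p = 0.072, limma).

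All 18 citric acid cycle genes were called higher in tissue, 3 of them lacked (16.7%), against 30.3% and 6.92% of all genes. The median member stood at 19.4% of tissue in NFIA cells and 12.2% in control cells. Sucla2, a subunit of the ADP-forming succinyl-CoA ligase, was at 1646, 1515 and 1368 FPKM in tissue and 95.2, 87.6 and 84.5 FPKM in the cells. Suclg2, the corresponding subunit of the GDP-forming enzyme, was at only 29.4, 27.5 and 24.5 FPKM in tissue and 13.2, 12.7 and 13.2 FPKM in the cells, the smallest difference of the list. No gene of the cycle stood at the tissue level.

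Respiratory chain and ATP synthase subunits were lower by less. Of 73 nuclear-encoded members, 69 were called higher in tissue (94.5%, against 30.3% of all genes) and 1 was lacked. The median member stood at 31.4% of tissue, and the list median stood 1.81 log2 units above all genes. With a 2-fold minimum 44 remained called. In control cells the median member stood at 24%. Cox7b, a cytochrome oxidase subunit, was the lacked one, at 8359, 7062 and 7667 FPKM in tissue and 451, 813 and 672 FPKM in the cells. Uqcrc1 of complex III and Ndufc2 of complex I differed by 3.12 ± 0.18 and 2.96 ± 0.15 log2 units (SE). Cell replicate 1 was the lowest cell library for 66 of the 68 short subunits, as for Cox8a, at 487, 1254 and 1077 FPKM in the cells and 1477, 1470.1 and 1756 FPKM in tissue. The call for Cox8a (0.84, adjusted p = 0.047, limma) was lost when any of the tissue libraries was left out, at differences of 0.76 to 0.89 (lowest adjusted p 0.082, limma).

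The 4 members higher in cells were Atp5g1, Atp5g2, Atp5g3 and Atp5j, parts of the proton-turning membrane sector or stalk of ATP synthase. Atp5g1 was at 12.8, 11.7 and 13.8 FPKM in tissue and 77.7, 161 and 142 FPKM in the cells, and Atp5g3 at 453, 354 and 426 FPKM and 806, 1084 and 1072 FPKM. Atp5g2 (-0.50, adjusted p = 0.032, limma) lost its call when any tissue library or cell replicate 2 or 3 was left out, and in the earlier-year libraries (-0.10, adjusted p = 0.61, limma). The Atp5g genes encode the same mature protein and have near-identical copies, so how reads were divided among them is uncertain. In control cells Atp5g1 was at 91.5 FPKM and Atp5g3 at 744 FPKM.

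The list of cytochrome oxidase isoforms holds forms of restricted use beside their more general counterparts, so its counts are not of tissue-specific forms alone. Of 11 tested, 10 were called higher in tissue (90.9%, against 30.3% of all genes) and 5 were lacked (45.5%, against 6.92%). The lacked ones include Cox4i2 and Cox6b2, the 2 members that passed the filter on tissue values alone and could only come out higher in tissue. Cox4i1, Cox6a1, Cox6b1, Cox7a2, Cox7b and Cox8a are also counted among the respiratory chain subunits above, and Cox7b is among the lacked in both counts. Cox6b2 was at 48.9, 44.5 and 45 FPKM in tissue and at most 0.06 FPKM in the cells. Cox6a2, the heart and skeletal muscle form, went the other way, at 0.47, 0.44 and 1.44 FPKM in tissue, 5.69, 11.3 and 10.8 FPKM in NFIA cells and 71.2, 114 and 120.0 FPKM in control cells. Of the other uncoupling protein genes, Ucp3 was at 46.2, 5.59 and 14.5 FPKM in tissue and 1.53, 2.13 and 1.72 FPKM in the cells, a call lost in the earlier-year libraries (2.74, adjusted p = 0.088, limma). Ucp2, the widely expressed member, overlapped, at 687, 296 and 624 FPKM and 456, 495 and 432 FPKM, but without tissue replicate 2 it was called higher in tissue (0.51, adjusted p = 0.022, limma).

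**Figure D4:**
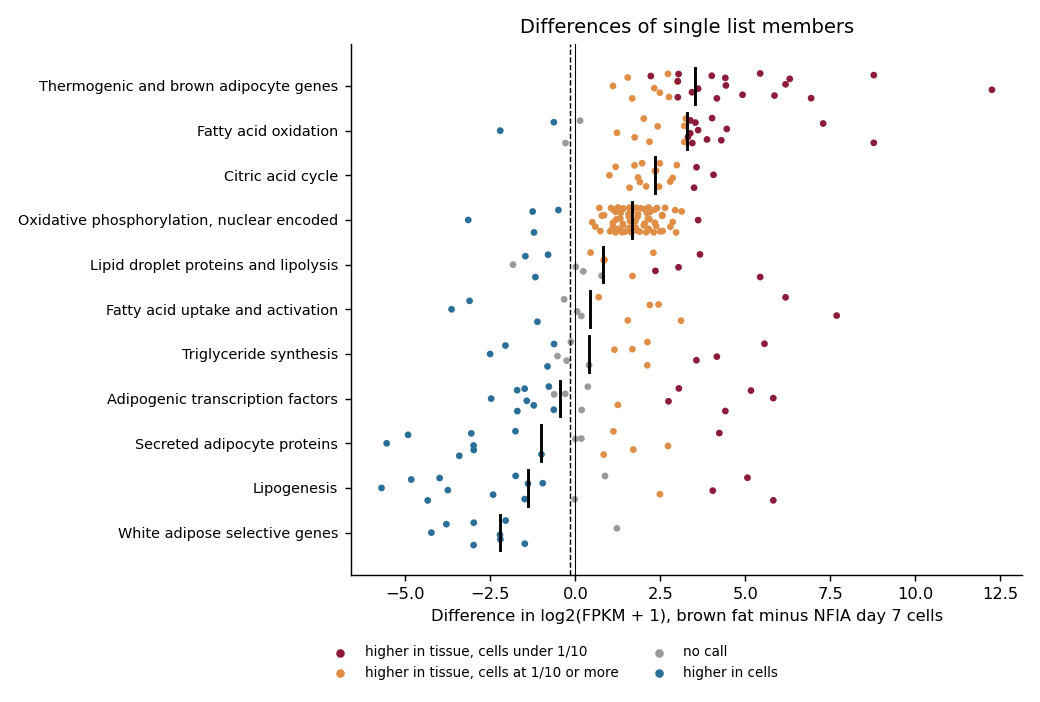
Log2 differences of single list members, brown fat minus NFIA day 7 cells (x axis), by list (rows), coloured by class. Black bars are list medians and the dashed line is the median of all genes tested. Citric acid cycle members lie wholly to the right of 0, and 8 of 9 white adipose selective genes lie to the left.

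Genes of the general adipocyte programme ranged from lacked to exceeded. Of 23 tested, 14 (60.9%) were called higher in tissue, 5 of them lacked (21.7%), 3 (13%) were higher in cells and 6 had no call. Over all genes, 30.3% were higher in tissue, 6.92% lacked and 40.1% higher in cells. The median member stood at 34.4% of tissue in NFIA cells and 0.303% in control cells. Adipoq (chr16:23146609-23158101 on mm9), the hormone adiponectin, was at 894, 842 and 859 FPKM in tissue and 238, 299 and 261 FPKM in the cells, 30.7% by the means. Control cells held 0.0333 FPKM. The difference was 1.70 ± 0.14 log2 units (SE, adjusted p = 1.1e-05, limma), and the groups did not overlap.

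Fabp4, the adipocyte fatty acid binding protein, was the most abundant of these genes, at 23064, 21229.7 and 0 FPKM in tissue and 22824, 23158 and 21182 FPKM in the cells. With the listed zero of tissue replicate 3 as missing, so over 5 libraries, the difference was -0.02 ± 0.26 log2 units (SE). Lpl, which frees fatty acids from lipoproteins, was at 803, 1078 and 781 FPKM in tissue and 1196, 1119 and 1006 FPKM in the cells (interval -0.74 to 0.07). The lowest cell value of Lpl lay below the highest tissue value, and 4 of 20 alternatives called it higher in cells. Without tissue replicate 2 it was called higher in cells (-0.48, adjusted p = 0.043, limma). Under quantile normalization the difference was larger (-0.80, adjusted p = 0.0033, limma).

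Lipid droplet coat proteins were split. Plin1 was at 487, 109.9 and 667 FPKM in tissue and 294, 383 and 309.5 FPKM in the cells, so tissue replicate 2 lay below all cells and replicates 1 and 3 above all of them (interval -1.30 to 1.33). Without tissue replicate 2, Plin1 was called higher in tissue (0.80, adjusted p = 0.0092, limma), and so was Plin4 (0.49, adjusted p = 0.017). Plin4, which coats nascent droplets, was at 295, 180.4 and 319 FPKM in tissue and 212, 239.5 and 206 FPKM in the cells. Plin2, found in most cells that hold lipid, was higher in cells, at 1610.2, 1744 and 1519 FPKM against 838, 399 and 598 FPKM. Plin5, which ties droplets to mitochondria, was lacked, at 16.8 ± 3.05 FPKM (SD, n = 3) against 242, 55.4 and 218 FPKM.

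Of the lipases, Pnpla2 and Lipe were short and Mgll had no call. Pnpla2, the triglyceride lipase ATGL, was at 2624, 2819 and 2310.2 FPKM in tissue and 692, 934 and 800.0 FPKM in the cells, and Lipe, hormone-sensitive lipase, at 608, 384 and 513 FPKM and 84.8, 118 and 98.9 FPKM. Neither overlapped between the groups. Mgll, monoglyceride lipase, overlapped, at 287, 105 and 368 FPKM in tissue and 114, 151 and 128 FPKM in the cells (interval -0.16 to 1.70). G0s2, the inhibitor of ATGL, had no call, at 322, 38.2 and 737 FPKM in tissue against 549, 963 and 802 FPKM in the cells. Without tissue replicate 3, its highest tissue library, it was called higher in cells (-2.74, adjusted p = 0.019, limma). Bscl2, the droplet assembly protein seipin, was lacked, at 176, 122 and 157 FPKM and 9.36, 13.1 and 10.5 FPKM.

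Of the 5 lacked general genes, 3 handle glucose or glycerol: Slc2a4, Aqp7 and Pck1. Slc2a4, the insulin-responsive glucose transporter GLUT4, was at 119, 172 and 58.8 FPKM in tissue and 4.58, 5.62 and 5.32 FPKM in the cells. Aqp7, the glycerol channel, was at 150.4, 111 and 129 FPKM and 2.37, 1.81 and 1.2 FPKM, and Gyk, glycerol kinase, at 200.1, 149 and 113 FPKM and 7.53, 6.84 and 7.95 FPKM. Pck1, the enzyme of glyceroneogenesis, was at 671, 136 and 683 FPKM and 31.3, 35 and 32 FPKM, and reached 97.9, 116 and 121 FPKM with forskolin. Gpd1, which makes glycerol 3-phosphate from glycolysis, was short, at 3923, 2821 and 3048 FPKM and 673, 831 and 733 FPKM. Car3, a carbonic anhydrase abundant in fat and slow muscle, was at 2296, 2762 and 2349 FPKM and 26.4, 30.7 and 23.3 FPKM, below the 127 FPKM of control cells.

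In triglyceride synthesis, 7 of 15 members (46.7%) were higher in tissue, 4 (26.7%) higher in cells and 4 without a call. Over all genes tested, 30.3% were higher in tissue and 40.1% higher in cells. The final step was divided between its 2 enzymes. Dgat1 was at 887, 699 and 616 FPKM in tissue and 148, 183 and 171 FPKM in the cells, and Dgat2 at 261, 115 and 199.9 FPKM and 649, 896 and 756 FPKM, opposite directions with no overlap in either. Agpat2, an acyltransferase whose loss causes lipodystrophy, overlapped at 950.0, 306 and 670.3 FPKM and 711, 961 and 853 FPKM, and quantile normalization called it higher in cells (-0.91, adjusted p = 0.03, limma). Gpam, the first acyltransferase of the pathway, had an interval of -0.55 to 0.28, within 2-fold either way.

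Among 14 genes of fatty acid uptake and activation, 7 (50%) were higher in tissue and 3 (21.4%) higher in cells, against 30.3% and 40.1% of all genes. On tissue values alone the filter let 2 of them through, so their direction was fixed. Cd36, a fatty acid translocase, was at 1151, 889 and 1352 FPKM in tissue and 231, 188 and 194 FPKM in the cells. Gpihbp1, which holds lipoprotein lipase on capillary endothelium, was at 224, 191 and 202 FPKM and at 0 in all cell libraries. Gpihbp1 is counted in this list and also among the endothelial genes below, and which cells of the tissue express it was not tested. Angptl4, an inhibitor of that lipase, overlapped, with an interval of -0.32 to 0.67. Fabp5 was at 168, 159 and 168 FPKM in tissue and 1819.7, 2340.1 and 2092 FPKM in the cells, 12.6-fold higher in cells by the means. Fabp3, the heart form, was called higher in cells as well, at 58.5, 77.4 and 72.6 FPKM against 22.8, 4.75 and 2.87 FPKM, a call lost in the earlier-year libraries at a similar difference (-2.88 against -3.11, adjusted p = 0.071, limma).

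Lipogenesis ran against the oxidative genes. Of 17 members, 10 were called higher in cells (40.1% of all genes were) and 4 higher in tissue, and the list median minus that of all genes was -1.24 log2 units. Fasn (chr11:120667254-120685492 on mm9), fatty acid synthase, was at 51.6, 56.2 and 33.5 FPKM in tissue and 879, 1079 and 918 FPKM in the cells, 20.3-fold higher in cells by the means (adjusted p = 4.7e-07, limma). Control cells, at 31.6, 31.6 and 30.9 FPKM, were below every tissue library. Acaca, which makes malonyl-CoA for synthesis, was at 6.95, 8.18 and 3.84 FPKM and 113, 91.9 and 81 FPKM. Its mitochondrial counterpart Acacb, whose malonyl-CoA restrains CPT1, was lacked, at 129.6, 126 and 134 FPKM and 6.91, 7.23 and 6.7 FPKM. The 2 forms of acetyl-CoA carboxylase thus lay on opposite sides of the comparison.

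Acly, which supplies cytosolic acetyl-CoA, was at 52.9, 64.5 and 54.1 FPKM in tissue and 319, 323 and 287 FPKM in the cells. Scd2, a stearoyl-CoA desaturase, was at 7.42, 22 and 4 FPKM and 542, 510.0 and 496 FPKM, with 352 FPKM already in control cells. Scd1 gave no stable value: it was at 414, 698 and 101 FPKM in tissue and 0, 0 and 4056 FPKM in the cells, and with the zeros as missing, which leaves 1 cell library assumed to vary like the others, the difference was -3.71. Thrsp, a lipogenic gene known to respond to thyroid hormone and carbohydrate, was lacked, at 568, 484 and 516 FPKM and 12.6, 18 and 13.8 FPKM. Elovl5, a fatty acid elongase, overlapped, with an interval of -0.53 to 0.49.

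Of 15 secreted proteins tested, 8 (53.3%) were called higher in cells and 5 (33.3%) higher in tissue, against 40.1% and 30.3% of all genes. Rbp4 (chr19:38191110-38199811 on mm9), the retinol carrier, was at 17.2, 19.1 and 10.1 FPKM in tissue and 578, 912 and 793 FPKM in the cells (49.2-fold by the means). Lcn2 was at 9.14, 8.65 and 10.5 FPKM and 264, 354 and 333 FPKM, and C3, complement component 3, at 54.8, 51.2 and 109 FPKM and 638, 569.5 and 512 FPKM. In control cells these genes averaged 0.333, 0.0367 and 0.107 FPKM. Retn, the hormone resistin of white fat, was at 13.7, 5.2 and 29.4 FPKM and 99.8, 129 and 104 FPKM. Fgf21, a stress-induced hormone, was at 0.33, 1.38 and 0.35 FPKM in tissue and 11.6, 18.9 and 19.9 FPKM in NFIA cells, and control cells were higher again, at 53.3, 78.2 and 67.8 FPKM. Cfd, the secreted protease adipsin, was the lacked member, at 489, 453 and 1009.6 FPKM and 21.9, 38.4 and 36.3 FPKM. Hp, haptoglobin, overlapped, with an interval of -0.46 to 0.46.

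Of the white adipose selective list, 8 of 9 tested genes were called higher in cells (88.9%, against 40.1% of all genes) and none higher in tissue. The filter let 2 of them through on cell values alone. Agt, the angiotensin precursor, was at 9.1, 7.36 and 16.1 FPKM in tissue and 79.8, 102 and 86.6 FPKM in the cells. Lep, leptin, the best known white fat hormone, did not pass the filter and was at 0.07, 0.18 and 0.1 FPKM in tissue and 0.09, 0.09 and 0.07 FPKM in the cells. Some genes of the list were expressed in control cells too. Psat1, of serine synthesis, was at 9.28, 9.17 and 7.51 FPKM in tissue, 135, 125 and 139 FPKM in NFIA cells and 118, 115 and 111 FPKM in control cells, with NFIA and control cells close together. Hoxc10, a positional gene, was at 0, 0.19 and 0.01 FPKM in tissue, 18.5, 19.2 and 19.4 FPKM in NFIA cells and 22.7, 25.3 and 20.8 FPKM in control cells. Slc7a10, an amino acid transporter of white adipocytes, had no call, at 6.77, 0.63 and 7.84 FPKM in tissue and 1.07, 0.98 and 1.16 FPKM in the cells. Without tissue replicate 2 it was called higher in tissue (adjusted p = 9.5e-06, limma).

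The creatine cycle, a second route of heat production described for fat, showed no tissue excess apart from Ckb. Of 6 tested, 5 were called higher in cells (83.3%, against 40.1% of all genes). On cell values alone the filter let 1 of them through, so its direction was fixed. The median member stood at 563% of tissue in NFIA cells and 1879% in control cells. Ckb, brain-type creatine kinase, was at 21.9, 14.7 and 12.6 FPKM in tissue and 6.89, 11.1 and 11.2 FPKM in the cells. Its call (0.70, adjusted p = 0.029, limma) was lost without tissue replicate 1 (0.48, adjusted p = 0.11) or cell replicate 1 (0.49, adjusted p = 0.1). Slc6a8, the creatine transporter, was at 8.05, 10.7 and 5.09 FPKM and 53.1, 48.8 and 41.1 FPKM. Ckm, the muscle kinase, was at 4.36, 0.76 and 10.8 FPKM in tissue, 19.9, 29.5 and 34.3 FPKM in NFIA cells and 218, 255 and 273 FPKM in control cells.

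Markers of cell types other than fat cells were measured in both groups. All 12 endothelial genes were called higher in tissue, against 30.3% of all genes tested. The filter let 10 of them through on tissue values alone, so their direction was fixed. Their summed FPKM was 869 to 1021 in tissue and 9.05 to 9.96 in the cells, where 10 of 12 were below 1 FPKM in every library. Cdh5, the endothelial cadherin, was at 134, 119 and 116 FPKM in tissue and 0, 0.02 and 0 FPKM in the cells. Erythroid genes summed to 4249.6 to 5615 FPKM in tissue and 1.28 to 2.97 FPKM in the cells, with 5 of 8 members found at 0 in all cell libraries. Of 12 immune genes tested, 9 (75%) were higher in tissue, all of them lacked, against 30.3% and 6.92% of all genes. The filter let 9 immune genes through on tissue values alone, and such genes could only come out higher in tissue. Of 17 listed, 14 were below 1 FPKM in every cell library. Immune markers nevertheless summed to 224 to 312 FPKM in tissue and 162 to 206 FPKM in the cells, and S100a8, a neutrophil gene, made up most of the latter, at 148, 189 and 179 FPKM, while its partner S100a9 was at 0. The part of these cell types in the tissue values of adipocyte genes was not tested.

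Most muscle transcripts tested were higher in the cells than in tissue. Skeletal muscle contractile genes summed to 5341 to 6989.6 FPKM in the cells, 224 to 342 FPKM in tissue and 44182 to 47647 FPKM in control cells. Of 34 tested, 33 were called higher in cells than in tissue, against 40.1% of all genes. The filter let 8 of the 34 through on cell values alone, so their direction was fixed. Mylpf, a fast muscle myosin light chain, was at 2073, 2408 and 2977 FPKM in NFIA cells, 25, 35.5 and 55.6 FPKM in tissue and 21626, 21288 and 22207 FPKM in control cells. Of 10 myogenic regulators tested, 7 (70%) were called higher in cells and 2 (20%) higher in tissue, against 40.1% and 30.3% of all genes. On cell values alone the filter let 4 of them through, so these could only come out higher in cells. The 2 higher in tissue were Mef2d and Mef2c, by 1.09 and 0.97 log2 units. Myog, which commits myoblasts to fuse, was at 104, 149 and 196 FPKM in NFIA cells, 0.05, 2.9 and 0.19 FPKM in tissue and 453, 622 and 621 FPKM in control cells. Myod1, which sets muscle fate, was at 10.2, 16.2 and 22.9 FPKM, 0, 0.09 and 0.02 FPKM and 29.3, 35.9 and 34.8 FPKM in the same order. Tissue replicate 2 held the highest Myog value of the tissue libraries. The part of muscle RNA in the differences from tissue was not tested. Nerve and glia markers summed to 47.3 to 73 FPKM in tissue and 150.3 to 182 FPKM in the cells. Of 6 tested, 4 (66.7%) were higher in tissue and 2 (33.3%) higher in cells, against 30.3% and 40.1% of all genes. On tissue values alone the filter let 3 of them through, so their direction was fixed. In the cells 8 of 11 listed were below 1 FPKM in every library. Ncam1 was at 34.6, 33 and 32.3 FPKM there and averaged 133 FPKM in control cells. Smooth muscle and pericyte markers summed to 145 to 183 FPKM in tissue and 240.2 to 298 FPKM in the cells. Of 8 tested, however, 5 (62.5%) were higher in tissue and 1 (12.5%) higher in cells, against 30.3% and 40.1% of all genes. On tissue values alone the filter let 4 of them through, and these could only come out higher in tissue. Acta2 made up most of the cell sum, at 192.9, 244 and 232.8 FPKM, and averaged 909.5 FPKM in control cells. Of 9 listed, 5 were below 1 FPKM in every cell library. The part of these cells in the results was not tested either. Epidermal markers summed to 5.33 to 6.43 FPKM in tissue and 4.18 to 5.48 FPKM in the cells.

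**Figure D5:**
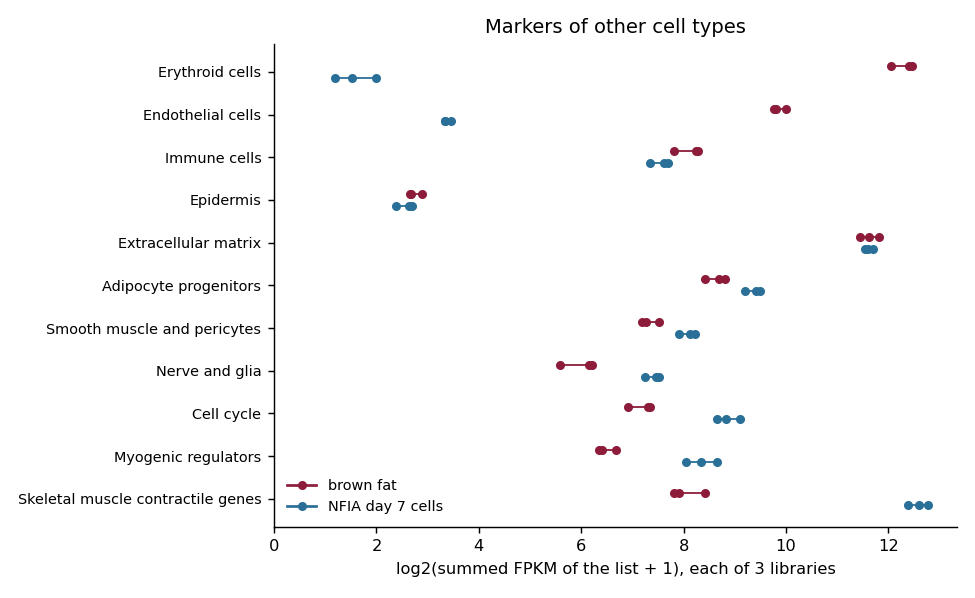
Summed FPKM of marker lists of other cell types in each library (dots joined by a line), as log2(sum + 1), in brown fat and NFIA day 7 cells. Erythroid and endothelial sums are high only in tissue among these 6 libraries, and skeletal muscle contractile sums are highest in the cells.

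Of the 49 lacked adipocyte genes, 45 had a mean under 10% of the tissue mean in NFIA cells with forskolin too. In control cells 48 did. The lacked genes among all genes tested numbered 828, of which 781 and 683 stood under 10% in the same groups. Over all tested adipocyte members, mitochondrial genes included, the median level was 32.7% of tissue in NFIA cells, 33% with forskolin and 16.4% in control cells. For general adipocyte genes alone these medians were 34.4%, 29.8% and 0.303%. These are levels side by side, and differences between the C2C12 groups were not tested here.

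Among all genes tested, the 8 with the largest differences toward tissue were Ucp1, the haemoglobin genes Hbb-b1, Hba-a1, Hba-a2 and Hbb-b2, Cpt1b, Dlk1 and Gpihbp1. The haemoglobin genes come in near-identical pairs, so the split of reads within a pair is uncertain. Dlk1, made by fetal and early postnatal tissues and fat precursors, was at 365, 334 and 293 FPKM in tissue and 0 in all cell libraries. Toward the cells the 8 largest were mitochondrially encoded mRNAs listed at 0 in tissue. The largest nuclear ones after them were named once their values were known. Cyp2e1, an ethanol-metabolizing cytochrome P450, was at 1063, 1099.8 and 1102 FPKM in the cells and 0.51, 10.0 and 5.3 FPKM in tissue. Hamp2, a hepcidin gene, was at 152, 241 and 209 FPKM and 0, 0.06 and 0.09 FPKM, and Gsta3, a glutathione transferase, at 271, 302 and 289.9 FPKM and 0.19, 1.16 and 0.44 FPKM. S100a4 was at 1015, 1315 and 1262 FPKM and 4.94, 8.41 and 3.84 FPKM. Cyp2f2, C4b, Spp1 and Serpina3m completed the 8, with log2 differences of -7.10, -6.94, -6.83 and -6.78.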

How the data were processed

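Polyadenylated RNA of the 3 tissue and 3 cell libraries was sequenced from stranded libraries, per the labels' protocols. Each library has a table of FPKM that the authors deposited. The submitters' processing notes name TopHat, Cufflinks and the mm9 build, and neither versions nor the annotation is given in the sources used here. Each table lists 37305 entries. Where a symbol had several entries at overlapping positions their FPKM were added, which merged 264 entries and left 37041 genes. GENCODE M21 was used for gene classes only: 32617 IDs matched it, and 1997 genes were classed by symbol. The test took protein-coding genes that reached 1 FPKM in 3 or more of the 6 libraries.

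The limma package (3.58.1, R 4.3.3) was run two-sided on log2(FPKM + 1), with a variance trend and Benjamini-Hochberg adjustment over all genes tested, tissue minus cells. The procedure was tested on simulated data. Errors are SE of a difference or SD over libraries. Fold values are ratios of mean FPKM and are given where both means reach 1 FPKM. Promoters are from RefSeq (GRCm38.p6), and 139 of 171 adipocyte genes higher in tissue had an entry.

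The adipocyte genes form 16 lists and the other cell types 11. Members and lists were chosen with earlier results of these data known. The rule for named genes held a set of best-known fat and muscle genes in every case. From each adipocyte list it allowed up to 4 called members per direction with the largest difference and no overlap between groups, and up to 3 members without a call with the highest mean. From other lists it allowed up to 3 with the highest mean and up to 3 called with the largest difference, and over all genes the 8 largest per direction at a mean of at least 5 FPKM. Acaca, Acadm, Acly, Adrb3, Cox8a, Dgat1, Lipe, Pnpla2, Rxra and Suclg2 fall outside the rule and were chosen after their values were seen. The alternatives were a pseudocount of 0.1, other filters, 3 rescalings, no variance trend, a 2-fold minimum, all 24 libraries, a replicate block, all gene classes, each library left out, the earlier header year, and zeros as missing. The 4 numbered libraries without a block were chosen after seeing the data.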

Additional observations from a re-analysis of the deposited data

How the results depend on the processing

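The counts as reported were 3626 genes higher in tissue and 4803 higher in cells, and among adipocyte genes 171 higher in tissue, 53 higher in cells and 49 lacked. A 2-fold minimum lowered the first 2 to 1335 and 1424, and adipocyte genes higher in cells to 33. The filter of 1 FPKM in all 6 libraries, which removes genes low in either group, left 31 lacked. The other alternatives kept these 5 counts within 1.5 times, with 2852 to 5167 genes higher in tissue, 3244 to 5556 higher in cells, and among adipocyte genes 158 to 173, 42 to 55 and 42 to 57. Leaving out each library in turn gave 3269 to 3694, 4246 to 4773, 163 to 173, 47 to 51 and 44 to 52. With a replicate block over the titles numbered 2 and 3, which share only a number between tissue and cells, the 5 counts were 2994, 4286, 162, 53 and 43, and the same 4 libraries without the block gave 3069, 4402, 158, 49 and 42. Scd1 reversed from 4.28 to -3.71 with its zeros as missing (adjusted p = 0.012, limma), since the 2 cell values of 0 are then dropped. The spread then comes from tissue and from other genes, and the lone cell library is assumed to vary like the rest. The cause of the other changes was not tested. Counts for single lists moved by over 1.5 times in 43 of 640 cases, 11 of them under the 2-fold minimum. Read totals are unknown, so no limit from depth can be given for genes near 0.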

Other observations

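Beyond the adipocyte genes, dividing-cell genes stood higher in the culture. Of 25 cell cycle genes tested, 22 were called higher in cells and none higher in tissue, where 40.1% of all genes were higher in cells. Rrm2, which makes deoxynucleotides for DNA synthesis, was at 49.2, 51 and 55.1 FPKM in the cells and 3.42, 4.46 and 2.41 FPKM in tissue, and at 69.2, 76.4 and 75.5 FPKM in control cells. The list's summed FPKM was 402 to 549.8 in NFIA cells, 119 to 161 in tissue and 959 to 1093 in control cells, with the NFIA cells between the others.

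Of 25 extracellular matrix genes, 12 (48%) were called higher in tissue and 9 (36%) higher in cells, against 30.3% and 40.1% of all genes. Col1a1, the main fibrillar collagen chain, was at 206, 172 and 129 FPKM in tissue, 13.2, 12.9 and 9.94 FPKM in NFIA cells and 649, 540.3 and 556 FPKM in control cells. Postn, a matrix protein of growing connective tissue, was also lowest in NFIA cells, at 28.9, 22.5 and 18.6 FPKM against 399, 320.1 and 352 FPKM in tissue and 419, 404 and 426 FPKM in control cells. Bgn, a small proteoglycan, was higher in cells, at 521, 559 and 521 FPKM against 83.2, 85.1 and 64.3 FPKM in tissue. Of the adipocyte progenitor markers, Ly6a, the surface antigen Sca-1, was at 496, 628 and 587 FPKM in the cells and 24.3, 21 and 17.5 FPKM in tissue, and at 172, 225 and 225 FPKM in control cells, while Dlk1 was at 0 in all C2C12 libraries at day 7.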
